A study of Homo sapiens with 6 samples.

Results

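Cathepsins and legumain are the proteases that digest proteins inside lysosomes, and 10 of their genes were examined among the 22413 genes listed: *Ctsa*, *Ctsb*, *Ctsc*, *Ctsd*, *Ctsf*, *Ctsh*, *Ctsl*, *Ctss*, *Ctsz* and *Lgmn*. The genes were taken by symbol, and they were chosen by their values in these same samples, the levels after I13 against the control. For that reason their differences between I13 and control are given as a description. Calls from the fits over all genes are listed, but nothing is read from them for the members. The cells were BaF3-T315I, a murine pro-B line that normally depends on interleukin-3 and here stably carries BCR-ABL with the T315I mutation, as do all 6 samples. There were 3 samples labelled control, whose agent and time are not named, and 3 samples exposed to 1.1 µM of I13, a histone deacetylase inhibitor derived from indole-3-butyric acid, for 48 h according to the methods of the study. The labels number the replicates 1 to 3 in each group and do not say that they came from separate cultures, so p-values measure the spread between these samples, which may be technical.

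Cathepsins are made as inactive precursors, travel to the lysosome mostly on mannose 6-phosphate receptors, and become active when they are cut in its acid lumen. Most are cysteine proteases, whereas *Ctsd* is an aspartic protease and *Ctsa* a serine carboxypeptidase. Legumain is a cysteine endopeptidase that cuts after asparagine and also processes other cathepsins into their mature forms. In blood cells these enzymes are abundant in macrophages and other antigen-presenting cells, where they degrade ingested protein and trim the invariant chain.

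mRNA was measured as FPKM, the fragments on a gene scaled by gene length and by library size, so that levels can be compared between genes. The FPKM values correspond to whole fragment numbers, and the library totals recovered from them ran from 16762119 to 17722950 fragments. Differences are given on the scale of log2(FPKM + 0.1), on which changes of weakly expressed genes come out too small. A gene entered the comparison when its FPKM averaged 0.5 or more across the 6 samples, as 12163 genes did, and it was called at an adjusted p below 0.05 (limma, Benjamini-Hochberg over all genes tested) and a log2 fold change of at least 0.58 in size. Of the 10 genes, 7 passed this filter. Where values of single samples are given, they stand in the order of replicates 1, 2 and 3.

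It can be seen from the levels by sample that the family falls into 6 abundant genes and 4 genes at or near the limit of detection. In the control, the order of mean FPKM was *Ctsz*, *Lgmn*, *Ctsb*, *Ctsd*, *Ctsc* and *Ctsa*, and the same order held after I13. In the control, *Ctsz* lay above *Lgmn* in 3 of 3 samples without overlap, and *Ctsd* lay above *Ctsc* without overlap. The neighbours *Lgmn* and *Ctsb*, *Ctsb* and *Ctsd*, and *Ctsc* and *Ctsa* overlapped, so their order was not distinct from the spread between samples. After I13 the values of *Ctsz* and *Lgmn* overlapped as well, and *Lgmn* exceeded *Ctsz* in 1 of the 3 samples.

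**Figure D1:**
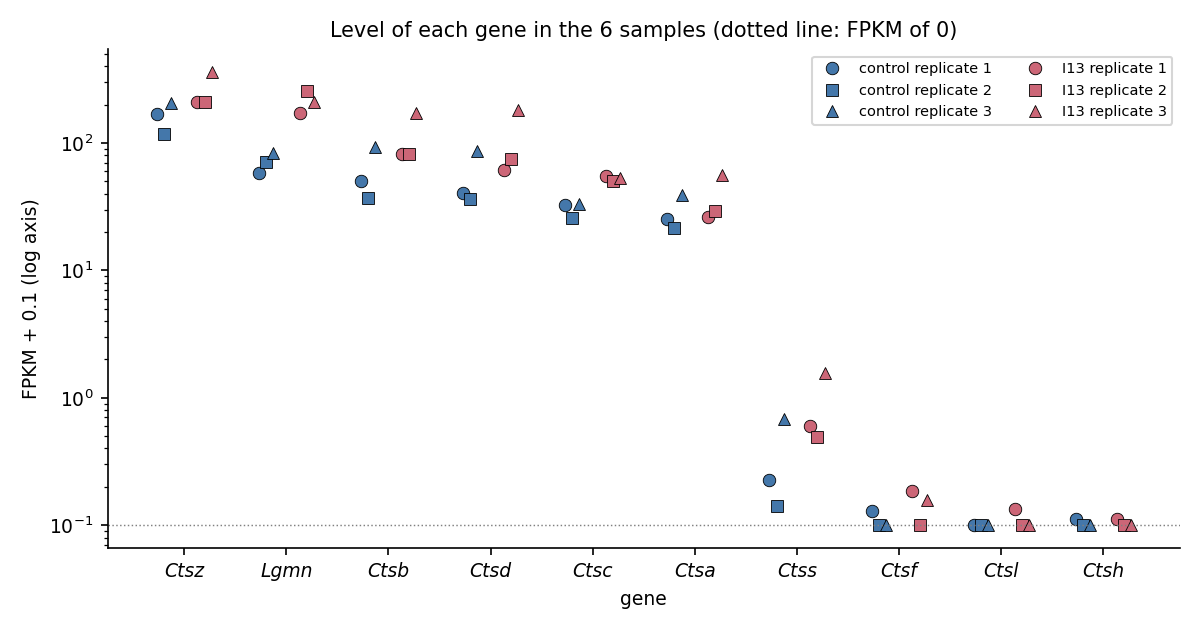
FPKM + 0.1 (log axis) of the 10 genes in each of the 6 samples, with blue for control, red for I13 and the symbol for the replicate number. Replicate 3 (triangles) is the highest sample of both groups for *Ctsz*, *Ctsb*, *Ctsd*, *Ctsa* and *Ctss*, and *Ctsf*, *Ctsl* and *Ctsh* lie on or close to the dotted line at an FPKM of 0.

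*Lgmn*, the gene of legumain, differed most among the 6 abundant genes. It was listed at 57.9, 70.8 and 83.8 FPKM in the controls and at 172, 253 and 208 FPKM after I13. The groups did not overlap, and the lowest I13 sample was above the highest control sample. The control mean was 70.8 ± 12.99 FPKM and the I13 mean 211 ± 40.8 FPKM (SD, n = 3 each), a ratio of the means of 2.98 and a log2 fold change of 1.57 (standard error 0.18). Within the same-numbered pairs, the I13 sample was 2.97-, 3.58- and 2.48-fold above its control for replicates 1, 2 and 3. These values rest on 8715 fragments in the controls and 25364 fragments in the I13 samples. By mean FPKM, *Lgmn* stood at rank 766 of all listed genes in the control and at rank 209 after I13. As the RNA is from bulk samples, a larger share of cells with the transcript and more transcript per cell cannot be told apart here.

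*Ctsz*, the gene of cathepsin Z, a carboxypeptidase that is also secreted and binds integrins, was the most abundant member in both groups. It was listed at 170, 117 and 204 FPKM in the controls and at 210, 211 and 361 FPKM after I13. The groups did not overlap, although I13 replicates 1 and 2 lay only just above control replicate 3. The control mean was 164 ± 43.9 FPKM and the I13 mean 260 ± 86.9 FPKM (SD, n = 3 each). The log2 fold change was 0.66 (standard error 0.27), with pair differences of 0.30, 0.85 and 0.82 on the log2 scale for replicates 1, 2 and 3. Its difference was therefore smallest in replicate 1. Without I13 replicate 3 the log2 fold change of *Ctsz* was 0.40, and without control replicate 2 it was 0.43. With both samples of replicate 3 left out in the fit with the replicate block, it was 0.57.

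*Ctsc* encodes dipeptidyl peptidase 1, which activates the serine proteases of granules by removing an N-terminal dipeptide. It was listed at 32.7, 25.7 and 33.0 FPKM in the controls and at 54.5, 49.7 and 53.2 FPKM after I13. The groups were separate, and within each group the samples lay close together. The control mean was 30.5 ± 4.15 FPKM and the I13 mean 52.5 ± 2.45 FPKM (SD, n = 3 each), for a log2 fold change of 0.79 (standard error 0.12). That standard error was the smallest among the 7 genes that passed the filter.

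*Ctsb* and *Ctsd* encode the main cysteine endopeptidase and the main aspartic endopeptidase of most lysosomes. *Ctsb* was listed at 50.2, 37.1 and 92.4 FPKM in the controls and at 81.4, 81.3 and 172 FPKM after I13. *Ctsd* was listed at 40.6, 36.0 and 87.0 FPKM in the controls and at 60.7, 74.2 and 180 FPKM after I13. For both genes the groups overlapped, because control replicate 3 lay above I13 replicates 1 and 2. *Ctsb* averaged 59.9 ± 28.9 FPKM in the control and 112 ± 52.5 FPKM after I13 (SD, n = 3 each), for a log2 fold change of 0.91 (standard error 0.40). *Ctsd* averaged 54.5 ± 28.2 FPKM in the control and 105 ± 65.6 FPKM after I13 (SD, n = 3 each), for a log2 fold change of 0.89 (standard error 0.47). When each I13 sample was set against the control of the same number, the spread was narrower. The pair differences of *Ctsb* were 0.69, 1.13 and 0.90 on the log2 scale, and those of *Ctsd* were 0.58, 1.04 and 1.05, for replicates 1, 2 and 3. With the replicate number as a block, the standard error of the log2 fold change fell to 0.096 for *Ctsb* and to 0.11 for *Ctsd*. In the fit without the block, leaving out I13 replicate 3 gave 0.55 for *Ctsb* and 0.41 for *Ctsd*. Leaving out control replicate 3 gave 1.27 for *Ctsb* and 1.28 for *Ctsd*. With both samples of replicate 3 left out in the fit with the block, the values were 0.91 for *Ctsb* and 0.81 for *Ctsd*, close to those from all samples.

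*Ctsa*, the gene of the protective protein that holds β-galactosidase and neuraminidase in 1 complex, differed least among the abundant genes. It was listed at 25.3, 21.4 and 39.2 FPKM in the controls and at 26.1, 28.9 and 56.3 FPKM after I13. The groups overlapped, and replicate 1 was nearly level between them. Its log2 fold change was 0.33 (standard error 0.33), and its pair differences were 0.05, 0.43 and 0.52 on the log2 scale for replicates 1, 2 and 3. Without I13 replicate 3, the log2 fold change of *Ctsa* was -0.01 with control replicate 3 kept. With both samples of replicate 3 left out in the fit with the replicate block, it was 0.24.

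The remaining genes had few fragments. *Ctss*, the endopeptidase that makes the last cuts in the invariant chain of antigen-presenting cells, had 3, 1 and 14 fragments in the controls and 12, 9 and 35 after I13. These correspond to 0.125, 0.0418 and 0.585 FPKM in the control and 0.501, 0.395 and 1.47 FPKM after I13. Control replicate 3 lay above I13 replicates 1 and 2, so the groups overlapped. The exact 95% Poisson interval, which covers counting error only, was 0.320 to 0.982 FPKM in control replicate 3 and 1.03 to 2.05 FPKM in I13 replicate 3. In the other pairs the intervals overlapped. They were 0.0257 to 0.364 FPKM in control replicate 1 and 0.259 to 0.876 FPKM in I13 replicate 1. For replicate 2 they were 0.00106 to 0.233 FPKM in the control and 0.181 to 0.751 FPKM after I13. The log2 fold change was 1.47 (standard error 0.75), and it was 0.97 without I13 replicate 3 and 0.99 without control replicate 2. The mean of *Ctss* over the 6 samples was 0.520 FPKM, just past the filter, which it reached only through the I13 samples, with a mean of 0.790 FPKM against 0.250 FPKM in the control.

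*Ctsf*, *Ctsh* and *Ctsl* did not pass the filter and were not compared. *Ctsf* had 1 fragment in the 3 controls together and 5 in the I13 samples. *Ctsh*, an aminopeptidase of lysosomes, had 1 fragment in each group. *Ctsl*, a broadly expressed cysteine endopeptidase in many other mouse tissues, had 0 fragments in every control and 4 fragments in I13 replicate 1 alone. For a count of 0, the exact 95% Poisson interval reaches up to 3.69 fragments, which for *Ctsl* is 0.0321 FPKM in control replicate 1. The transcripts of these 3 genes were thus at the limit of detection at this depth in both groups.

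**Figure D2:**
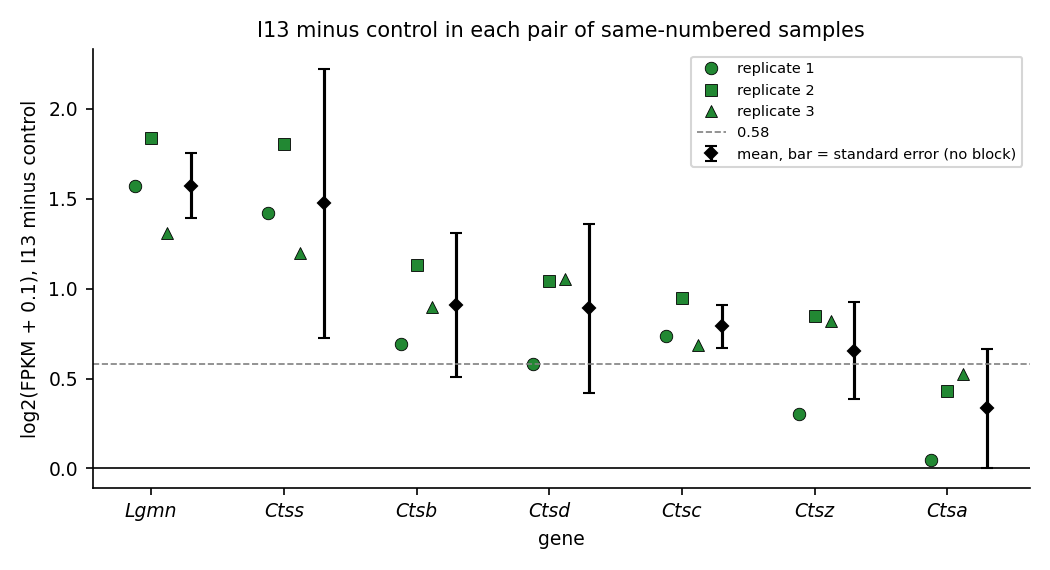
I13 minus control on the log2(FPKM + 0.1) scale for the 7 genes that passed the filter, with a green symbol for each pair of same-numbered samples and a black diamond for the mean with its standard error without the block. All 7 genes lie above 0 in every pair, *Lgmn* lies above 1.3 in each of them, and *Ctsa* is near 0 in replicate 1.

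All 7 genes that passed the filter were higher after I13 in all 3 pairs, which 24.1% of all genes tested also were. *Ctss* is among the 7 in these counts, although it passed the filter only through its I13 samples. In 3 of the 7, *Lgmn*, *Ctsz* and *Ctsc*, every I13 sample lay above every control, as in 9.82% of all genes tested. A log2 fold change of at least 0.58, whatever its p, was seen in 6 of the 7 and in 6.08% of all genes tested. The median log2 fold change over the 7 was 0.89, against -0.005 over all genes tested. Under the filter at a mean FPKM of at least 1, which leaves out *Ctss*, it was 0.84 over 6 members. With the thresholds on adjusted p and fold change, 0 of the 7 were called elevated by limma without the block, where 0.0329% of all genes tested were. An unadjusted p below 0.05 was found in 3 of the 7 and in 2266 of the 12163 genes tested. With the replicate block, 4 of the 7 were called, *Ctsb*, *Ctsc*, *Ctsd* and *Lgmn*, beside 1.36% of all genes tested. The voom method on the recovered fragments called 1, *Lgmn*, beside 0.0411% of all genes, and with the replicate block 6, all but *Ctsa*, beside 3.08%. Since the genes were chosen by this difference, nothing is read from these counts. Leaving out the samples of replicate 1 in the fit with the block gave 5 members called elevated, beside 78 of the 12163 genes tested. Leaving out those of replicate 2 or of replicate 3 gave 0, and 0 of all genes tested were called either. In these fits, 6 and 5 members had an unadjusted p below 0.05, beside 1638 and 3160 of all genes tested.

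The summed level of the 10 genes was 377, 308 and 541 FPKM in the controls and 605, 699 and 1033 FPKM after I13. The I13 samples all lay above the controls, and replicate 3 was the highest of each group. As a share of the library, the 10 genes took 0.102%, 0.0844% and 0.151% of the fragments in the controls and 0.167%, 0.188% and 0.282% after I13. The makeup of this sum also differed. *Lgmn* made up 15.4%, 23.0% and 15.5% of the summed FPKM in control replicates 1, 2 and 3 and 28.4%, 36.2% and 20.2% in the I13 replicates. The share of *Lgmn* was larger in the I13 sample of every pair, although I13 replicate 3 lay below control replicate 2. *Ctsz* made up 45.1%, 38.0% and 37.8% in the controls and 34.7%, 30.2% and 34.9% after I13, lower in every pair and without overlap. *Ctsa* made up 6.71%, 6.94% and 7.25% in the controls and 4.32%, 4.14% and 5.45% after I13, again without overlap. Shares of 1 sum depend on each other, so a larger share of *Lgmn* leaves less for the other genes. The FPKM values of *Ctsz* and of *Ctsa* were themselves higher after I13 in every pair. *Ctsb* kept a similar part of the sum, 14.2 ± 2.63% (SD, n = 3) in the control and 13.9 ± 2.56% (SD, n = 3) after I13.

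**Figure D3:**
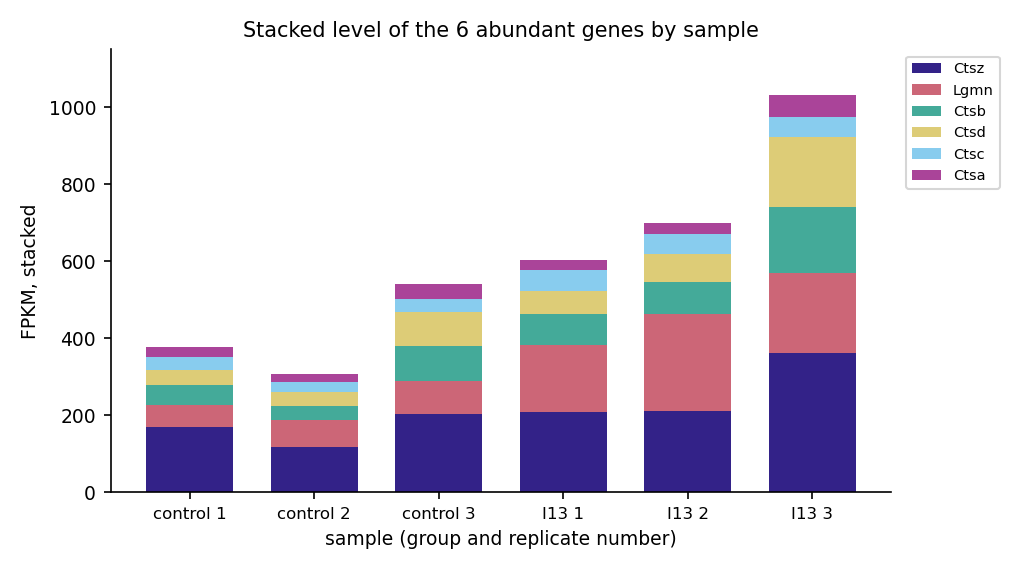
Stacked FPKM of the 6 abundant genes in each sample. The *Lgmn* segment widens from 57.9–83.8 FPKM in the controls to 172–253 FPKM after I13, and the whole stack is the tallest in I13 replicate 3.

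The labelled cell line was checked against markers. *Csf2rb*, *Il3ra* and *Ptprc* of the pro-B line were present in every sample, at 239 to 838, 9.07 to 18.2 and 10.2 to 15.0 FPKM. *Igll1*, *Vpreb1* and *Ebf1* were at or near 0. Of 8 pro-B markers, 5 passed the filter, and 4 of these were higher after I13 on average. With the block 1 was elevated, *Csf2rb*, beside 1.36% of all genes tested. Its log2 fold change was 0.83, at an adjusted p of 0.220 by limma without the block and of 0.031 with the replicate block. Of 11 macrophage markers, 6 were listed and 4 passed the filter, with summed levels of 26.6 to 50.6 FPKM in the controls and 60.8 to 93.5 FPKM after I13. The 4 were higher after I13 on average, and 1 of them, *Adgre1*, was elevated with the block. *Adgre1*, the F4/80 antigen, was listed at 37.6, 18.1 and 40.1 FPKM in the controls and at 72.1, 44.1 and 76.7 FPKM after I13 at an adjusted p of 0.180 by limma without the block and of 0.031 with the replicate block. *Csf1r*, the receptor that defines macrophages, stayed at or below 0.0702 FPKM, and *Mrc1* at or below 0.0267 FPKM, in every sample. Summed neutrophil and mast cell markers were 6.07 to 12.8 FPKM in the controls and 9.11 to 11.5 FPKM after I13, those of fibroblasts at most 0.130 FPKM and those of T cells at most 0.394 FPKM. The part of any of these markers in the levels of the members was not tested.

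The members were also compared between replicate numbers. Replicate 3 was set against the mean of replicates 1 and 2 within each group, a measure that does not use the difference between I13 and control. It was chosen after the values had been seen. For *Ctsd*, replicate 3 was higher by 1.18 on the log2 scale in the control and by 1.43 after I13. For *Ctsb* it was higher by 1.10 in the control and by 1.08 after I13, for *Ctsa* by 0.75 and 1.03, and for *Ctsz* by 0.53 and 0.78. For *Ctsc*, by contrast, replicate 3 differed by 0.19 and 0.03, and for *Lgmn* by 0.39 and -0.003. Thus replicate 3 stood above the others in both groups for *Ctsd*, *Ctsb*, *Ctsa* and *Ctsz*, and lay closer to them for *Ctsc* and *Lgmn*. Replicate 3 was the highest sample of both groups in 5 of the 7 members, *Ctsa*, *Ctsb*, *Ctsd*, *Ctss* and *Ctsz*, and in 16.0% of all genes tested. A limma F test was run on the replicate numbers, with the group kept as a term. In it, 0 of the 7 members had an adjusted p below 0.05, beside 0.28% of all genes tested. An unadjusted p below 0.05 was found in 6 of the 7. The share of all genes at that level was not counted, so nothing is read from this count. The adjusted p from limma was 0.0503 for *Ctsd*, 0.0514 for *Ctsb*, 0.0803 for *Ctsa*, 0.141 for *Ctsz*, 0.227 for *Ctss*, 0.230 for *Lgmn* and 0.320 for *Ctsc*. A difference between replicates was thus not shown for any single member once all genes were taken into account. What a replicate number stands for is not stated in the labels.

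**Figure D4:**
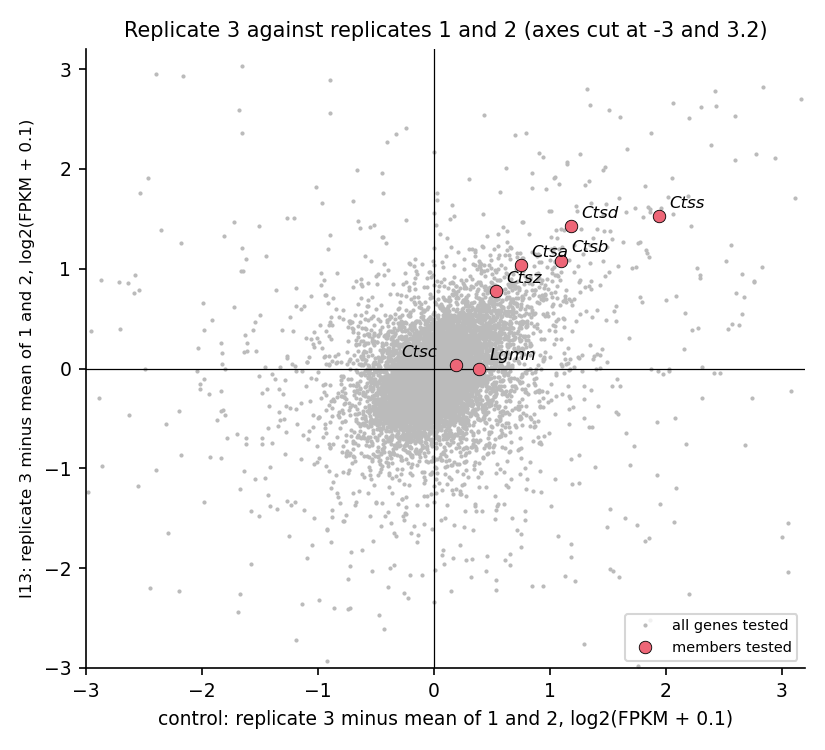
Difference of replicate 3 from the mean of replicates 1 and 2 on the log2(FPKM + 0.1) scale, in the control (horizontal axis) and after I13 (vertical axis), for all genes tested (grey) and the 7 members (red). *Ctsd*, *Ctsb*, *Ctsa*, *Ctsz* and *Ctss* lie to the upper right, and *Ctsc* and *Lgmn* lie near the centre of the cloud.

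The genes that work with these proteases were examined in 5 lists of 64 genes, of which 52 were listed in the table and 37 passed the filter. Without the block, 0 of the 37 were called by limma in either direction. An unadjusted p below 0.05 was found in 12 of them, beside 2266 of the 12163 genes tested. Voom without the block also called 0, with 13 at an unadjusted p below 0.05, beside 2356 of all genes tested. With the replicate block, 5 of the 37 were elevated and 0 were decreased, beside 1.36% and 0.526% of all genes tested. The 5 were *Napsa*, *Serpina3g*, *Grn*, *Glb1* and *Scpep1*. Leaving out the samples of replicate 2 or of replicate 3 left 0 of the 37 called, and 0 of all genes tested. In those fits, 11 and 17 of the 37 had an unadjusted p below 0.05, beside 1638 and 3160 of the 12163 genes tested. The median log2 fold change over the 37 was 0.31, against -0.005 over all genes tested. In all 3 pairs, 22 of the 37 were higher after I13, as were 24.1% of all genes tested.

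Of the other cathepsin genes, counted together with napsin A, 5 of 15 were listed and 2 passed the filter. *Napsa*, the gene of the aspartic protease napsin A, was listed at 5.60, 2.96 and 7.21 FPKM in the controls and at 10.1, 9.78 and 13.4 FPKM after I13, without overlap. This amounted to a log2 difference of 1.14 ± 0.31 (standard error), at an adjusted p of 0.140 by limma without the block and of 0.047 with the replicate block. *Ctso* was listed at 1.05, 0.919 and 1.68 FPKM in the controls and at 1.67, 1.83 and 1.97 FPKM after I13, and was not called by limma with or without the block. *Ctsw* stayed under the filter, with a mean of 0.341 FPKM over the 6 samples. Next to the 6 abundant members, these genes were minor transcripts.

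Among the inhibitors, 7 of 13 passed the filter and 1 was elevated with the block, with a median log2 fold change of 0.31 over the 7. *Serpina3g*, a serpin that inhibits cysteine cathepsins, was listed at 573, 59.5 and 315.03 FPKM in the controls and at 864, 170 and 628 FPKM after I13. Replicate 2 was the lowest of both groups and the groups overlapped widely. On the log2 scale it differed by 1.03 ± 0.91 (standard error), at an adjusted p of 0.573 by limma without the block and of 0.047 with the replicate block. *Serpinb1a*, an inhibitor of granule serine proteases, was listed at 152, 25.2 and 286 FPKM in the controls and at 182, 44.3 and 512 FPKM after I13, with the lowest value in replicate 2 again. It was not called by limma with or without the block, and was called by voom with the replicate block (log2 fold change 0.64 by limma, adjusted p = 0.0119 by voom). *Cst7*, a cystatin that inhibits cysteine cathepsins inside the cell, averaged 164 ± 77.2 FPKM in the control and 167 ± 68.2 FPKM after I13 (SD, n = 3 each). The log2 difference came to 0.07 ± 0.39 (standard error), at an adjusted p of 0.944 by limma.

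Of the genes involved in sorting to the lysosome, 14 passed the filter. With the block 1 of them was elevated, and the median log2 fold change was 0.08. *Grn*, the gene of progranulin, which binds cathepsin D and prosaposin, was listed at 61.4, 45.7 and 146 FPKM in the controls and at 143, 157 and 317 FPKM after I13. The groups overlapped only through control replicate 3, which lay just above I13 replicate 1. For *Grn* the log2 difference was 1.37 ± 0.47 (standard error), at an adjusted p of 0.194 by limma without the block and of 0.031 with the replicate block. *M6pr*, the cation-dependent mannose 6-phosphate receptor, averaged 65.7 ± 4.93 FPKM in the control and 80.3 ± 4.31 FPKM after I13 (SD, n = 3 each), for a log2 fold change of 0.29 (standard error 0.09) that was not called by limma with or without the block. *Psap*, the gene of prosaposin, had a log2 fold change of 0.37 (standard error 0.23) and was not called by limma with or without the block.

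Of the 11 partners and other lysosomal peptidases, all passed the filter, 2 were elevated with the block and the median log2 fold change was 0.50. Voom with the replicate block called 4 of the 11 elevated, *Glb1*, *Scpep1*, *Cd74* and *Dpp7*, beside 3.08% of all genes tested. *Glb1*, the β-galactosidase that cathepsin A protects, was listed at 71.7, 39.3 and 107 FPKM in the controls and at 108, 79.9 and 277 FPKM after I13. That is a log2 difference of 0.99 ± 0.51 (standard error), at an adjusted p of 0.343 by limma without the block and of 0.045 with the replicate block, and its groups overlapped. *Scpep1*, a serine carboxypeptidase related to *Ctsa*, was listed at 14.5, 9.49 and 14.1 FPKM in the controls and at 22.5, 21.3 and 26.2 FPKM after I13, without overlap. It differed by a log2 value of 0.89 ± 0.18 (standard error), at an adjusted p of 0.109 by limma without the block and of 0.038 with the replicate block. *Tpp1*, a tripeptidyl peptidase, averaged 24.5 ± 7.29 FPKM in the control and 32.2 ± 9.66 FPKM after I13 (SD, n = 3 each) and was not called by limma with or without the block. *Cd74*, the invariant chain, was listed at 3.40, 1.17 and 3.14 FPKM in the controls and at 4.19, 4.15 and 17.1 FPKM after I13, without overlap. Its log2 difference was 1.48 ± 0.62 (standard error). The adjusted p was 0.261 by limma without the block, 0.088 with it and 0.020 by voom with the block. *Dpp7* differed by 0.56 ± 0.30 (standard error), at an adjusted p of 0.119 by limma with the block and of 0.044 by voom with the block.

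Of the granule proteases that cathepsin C activates, 3 of 11 passed the filter and 0 were called by limma with or without the block, while 1 had an unadjusted p below 0.05 without it. *Cma1*, a mast cell chymase, was listed at 14.8, 11.9 and 81.1 FPKM in the controls and at 8.56, 13.4 and 45.9 FPKM after I13, with replicate 3 highest in both groups. *Prtn3*, the neutrophil serine protease, averaged 4.41 ± 1.15 FPKM in the control and 6.34 ± 2.48 FPKM after I13 (SD, n = 3 each). *Gzmb*, granzyme B, averaged 1.41 ± 0.684 FPKM in the control and 3.23 ± 1.65 FPKM after I13 (SD, n = 3 each), with overlap.

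**Figure D5:**
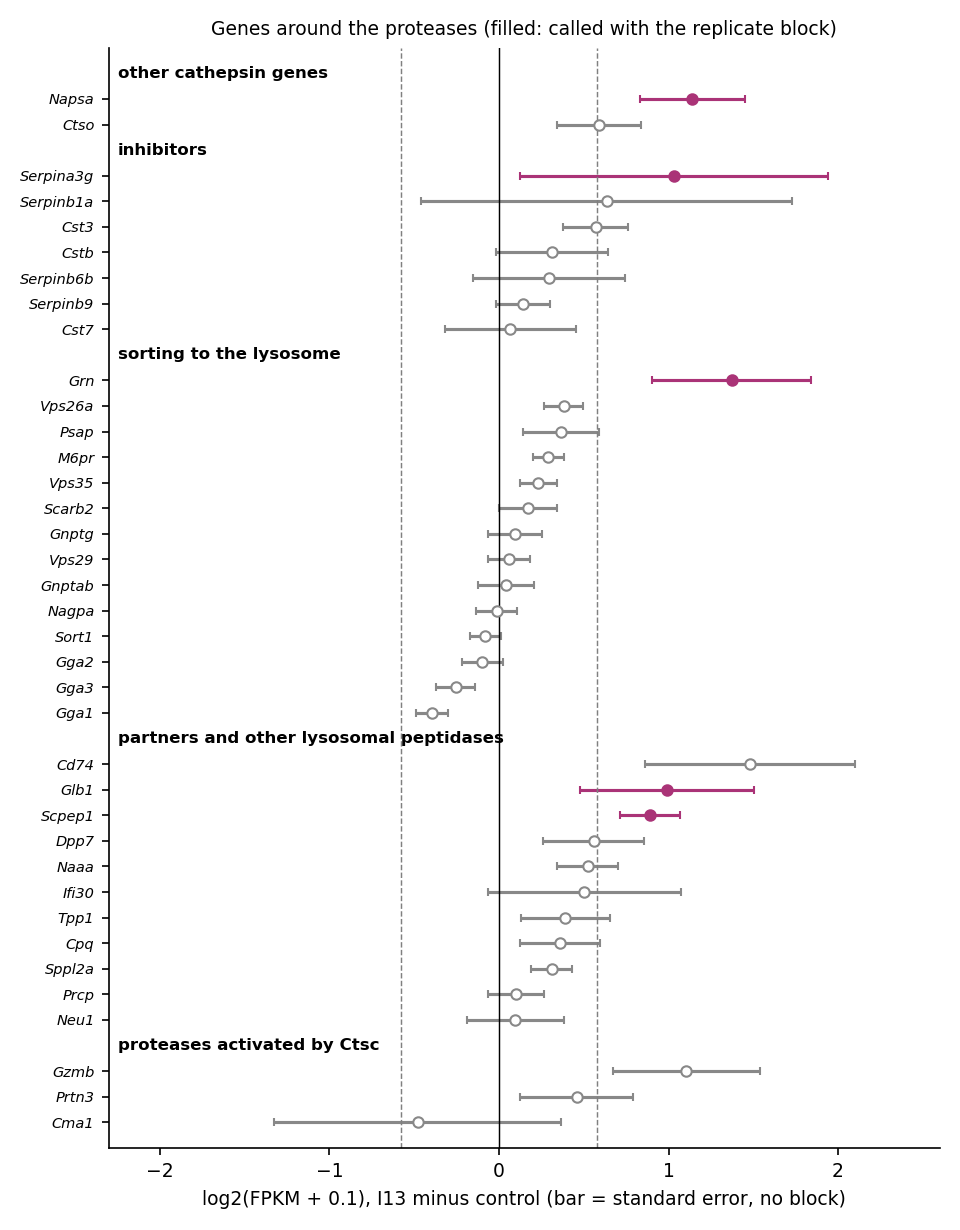
Log2 fold change (log2(FPKM + 0.1), I13 minus control) with its standard error without the block for the 37 genes of the 5 lists that passed the filter, where filled symbols mark the genes called with the replicate block. *Napsa*, *Serpina3g*, *Grn*, *Glb1* and *Scpep1* are filled, and the sorting genes other than *Grn* lie between the dashed lines, which stand at a log2 fold change of 0.58 in either direction.

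The profile of the members over the 6 samples was compared with all other genes at a mean FPKM of at least 1. The mean profile of the 7 members was lowest in control replicate 2, at -0.91 on the centred log2 scale, and highest in I13 replicate 3, at 1.03. It includes *Ctss*, which passed the filter only through its I13 samples. Among the members, *Ctsb* lay nearest to this mean profile, with a root mean square distance of 0.12 on the log2 scale. *Ctsz* at 0.20 and *Ctsd* at 0.23 followed, while *Lgmn* at 0.50 and *Ctss* at 0.52 lay farthest. The 5 nearest of 10864 other genes were *Csf2rb2* at 0.04, *Csf2rb* at 0.06, *Ftl1* at 0.09, *B2m* at 0.10 and *Ftl1-ps1* at 0.11, where the median distance of all these genes was 0.68. *Csf2rb* and *Csf2rb2* encode receptor subunits for interleukin-3, *Ftl1* the ferritin light chain and *B2m* the light chain of class I antigens. *Csf2rb2* was listed at 253, 196 and 408 FPKM in the controls and at 449, 471 and 795 FPKM after I13. *Csf2rb* and *Csf2rb2*, and *Ftl1* and its pseudogene, are near-identical copies, so their separate values are uncertain. Likeness over 6 samples that share 2 groups and 3 replicate numbers is a description.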

How the data were processed

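mRNA of 6 samples was sequenced from stranded libraries. The authors deposited FPKM values per gene and sample, without pooling. The submitters' processing notes name Trimmomatic, HISAT2, Cufflinks, HTSeq and hg38, with no versions; the labels give the organism as human, whereas 100% of the gene identifiers are mouse, so the values were used as mouse genes. No mouse sequence or coordinate was used here. Whole fragments were recovered from the deposited FPKM for 100% of the 22413 genes (tolerance 0.005 fragments), and 0 columns lacked a sample.

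limma 3.58.1 (R 4.3.3) was run on log2(FPKM + 0.1) with a trend, and tried on simulated data. Those data held no difference between replicate numbers, so they do not bear on the choice of the block. Replicate numbers were taken from the labels to pair the samples. Same-numbered samples deviated together from their group means (r across genes = 0.145, 0.301 and 0.219 for replicates 1, 2 and 3). Different numbers gave -0.258 to 0.0503. Each group was centred on its own mean, so positive values for same numbers push those for different numbers below 0. The contrast between them therefore cannot by itself establish the pairing, which rests on the numbers in the labels. The alternatives were other pseudocounts (0.01 and 1), filters and scalings, the block, voom and leaving out samples.

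The members and lists were chosen with earlier results of these data known. Named were all members, the 3 most abundant of each list and the 5 genes of nearest profile. Each gene of the 5 lists called by limma or voom on all 6 samples, with or without the block, was named too. Markers were named to check the cell type. Figures were drawn with matplotlib 3.10.9.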

Additional observations from a re-analysis of the deposited data

How the results depend on the processing

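Over the 7 members and 19 alternative settings, 131 log2 fold changes kept their direction, and 1 turned, that of *Ctsa* without I13 replicate 3. *Ctss* gave no value under the filter at a mean FPKM of at least 1. The limma block on all samples and the 2 other filters cannot change a fold change, so they add nothing to this count. The members were also chosen by this direction, so nothing is read from the count. The ranges were -0.0106 to 0.583 for *Ctsa*, 1.43 to 1.71 for *Lgmn*, 0.672 to 0.853 for *Ctsc*, 0.396 to 0.834 for *Ctsz*, 0.546 to 1.27 for *Ctsb*, 0.415 to 1.28 for *Ctsd* and 0.493 to 2.12 for *Ctss*. The median over the members was 0.89, and 0.546 to 1.27 with 1 sample left out in turn.

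With the replicate block, the members called elevated went from 0 to 4, the other pathway genes from 0 to 5, and all genes from 4 elevated and 1 decreased to 166 and 64. On recovered fragments, voom called 1 member, and with the replicate block 6 members, 8 other pathway genes and 375 elevated and 128 decreased genes. Among all genes, pseudocount 0.01, median-ratio scaling and quantile normalization each gave 2 elevated and 0 decreased, and no filter gave 3 decreased. Without 1 sample in turn and no block, 0 genes were called, with 1478 to 2482 at an unadjusted p below 0.05. In the replicate block fit without replicate 1, 5 members, 7 other pathway genes and 78 elevated and 5 decreased genes were called, and without replicate 2 or 3 there were 0, with 1638 and 3160 of all genes at an unadjusted p below 0.05. The cause was not tested. The block changed no other call among the members or pathway genes. Depth limits *Ctss*, *Ctsf*, *Ctsh* and *Ctsl*, and each group has 3 samples of 1 line.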
